A study of Homo sapiens with 2 samples.

Results

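A set of 8 genes tied to the epithelial-mesenchymal transition (EMT) was compared in BFTC 905 bladder carcinoma cells. The cells carried an empty plasmid or a plasmid expressing ANGPTL4. The genes were the transcription factors SNAI1, SNAI2, TWIST1, ZEB1 and ZEB2, the intermediate filament gene VIM, and the epithelial splicing regulators ESRP1 and ESRP2. All 8 were chosen by name from the 55773 gene symbols of the tables, and each had 1 row in both. BFTC 905 is an established human cell line of urothelial carcinoma of the bladder. The first library came from BFTC 905 transfected with pcDNA3.1-myc-His (-) A, termed the vector control, and the other from BFTC 905 transfected with the plasmid that overexpresses ANGPTL4, a secreted inhibitor of lipoprotein lipase. Both carried a plasmid and were stable clones selected with G418 at 400 ug/ml, and whether each was 1 clone or a pool is not given in the sources used here. Each group had 1 library, so the differences below lack replicates and carry no p-value, and they compare libraries rather than conditions.

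In EMT, epithelial cells give up their cell-cell junctions and take on a motile, mesenchymal form. SNAI1, SNAI2, ZEB1 and ZEB2 are zinc finger proteins that bind E-box DNA and repress junction genes such as CDH1, and TWIST1 is a basic helix-loop-helix factor that acts in the same program. VIM encodes vimentin, the filament protein of mesenchymal cells, whereas ESRP1 and ESRP2 are epithelial RNA-binding proteins that keep the epithelial exons of genes such as FGFR2 and CD44 in the message.

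Values are RPKM, reads of a gene scaled to the length of its exons and to the reads of the library, and so can be set side by side between genes. From the steps between RPKM values the vector control held 6572767 reads and the ANGPTL4 library 3233596, so that 1 read on 2000 exon bases was worth 0.0761 and 0.155 RPKM. Reads given below were worked back from these steps. Intervals are exact 95% intervals of those reads and cover counting error only, not the spread between cultures or library preparations. ANGPTL4 itself was at 3.92 RPKM in the vector control and 91.2 RPKM in the ANGPTL4 library, in the direction of the labels. Genes with at least 1 RPKM in a library, 11802 in all, are called measured, and their median log2 ratio of RPKM + 1 was -0.11, ANGPTL4 over control. On that scale 367 of them (3.11%) differed by at least 2-fold, 141 (1.19%) with the higher and 226 (1.91%) with the lower value in the ANGPTL4 library. After centring on the median gene the split was 182 and 139. The 13 protein genes of mitochondrial DNA took 5.11% and 8.71% of the reads, and the part of this difference, of depth and of clone in the values below was not tested.

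The epithelial splicing regulators and the SNAI factors were well above the other members in both libraries, while VIM, TWIST1, ZEB1 and ZEB2 stayed under 1 RPKM. Of the 8 members, 4 were measured, namely ESRP1, ESRP2, SNAI2 and SNAI1, and each was above 1 RPKM in both libraries. None of these 4 differed by 2-fold, against 3.11% of all measured genes. All 4 had the higher value in the ANGPTL4 library, as did 35.6% of all measured genes. The 4 others were below the minimum in both libraries.

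**Figure D1:**
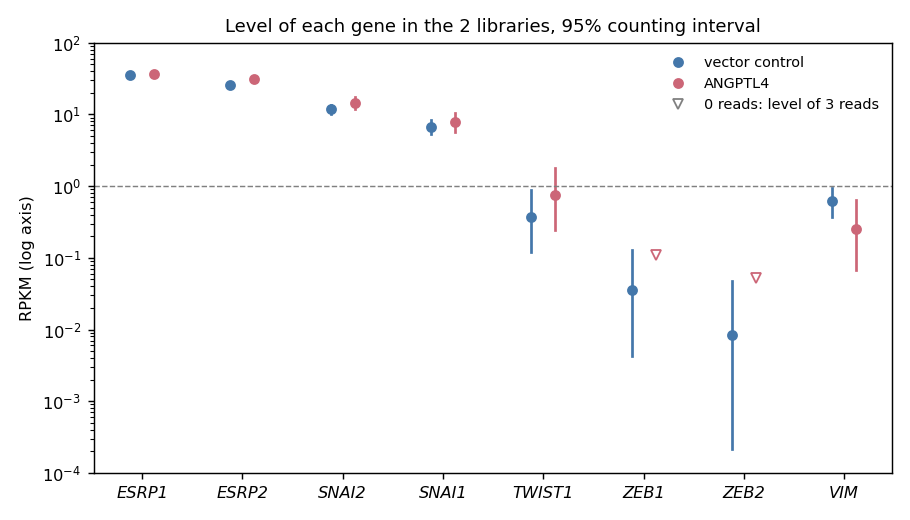
RPKM of the 8 members in the vector control and ANGPTL4 libraries, with exact 95% counting intervals as bars; the axis is logarithmic, the dashed line marks 1 RPKM, and open triangles stand for 3 reads where none were found. ESRP1, ESRP2, SNAI2 and SNAI1 lie between 6.68 and 36.3 RPKM, and the other members lie below 1 RPKM in both libraries.

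ESRP1 (chromosome 8, 95653302 to 95719694, hg19) was the most abundant member by RPKM. It was at 35.4 RPKM (33.3 to 37.6, 1071 reads) in the vector control and 36.3 RPKM (33.3 to 39.5, 541 reads) in the ANGPTL4 library. These levels exceeded those of 91.3% and 92.6% of measured genes. The libraries overlapped in their intervals, with a ratio of 1.03 (0.924 to 1.14), so a difference was not detectable at this depth.

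ESRP2 (chromosome 16, 68263014 to 68272005, hg19), the paralogue of ESRP1, was at 26.0 RPKM (24.4 to 27.7, 950 reads) in the vector control. In the ANGPTL4 library it was at 31.0 RPKM (28.4 to 33.6, 557 reads). Its ratio of 1.19 (1.07 to 1.32) had an interval that excluded 1, the only one of the 4 measured members for which this was so. Of 10679 measured genes with reads and a settled exon length, 8.57% had such an interval above 1 and 27.9% below 1. The plain RPKM scale was used for these intervals, and ESRP2 had a higher log2 ratio of RPKM + 1 (0.24) than 87.0% of measured genes. NFATC3, a transcription factor gene whose region shares 149 bases with the ESRP2 region, was at 11.97 and 10.3 RPKM, and the use of strand in counting is not given in the sources used here.

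By RPKM, ESRP1 was the more abundant of the pair in both libraries. In the ANGPTL4 library ESRP2 had more reads (557 beside 541), so the order there rests on its longer exon length (5563 beside 4604 bases). The intervals below do not cover which isoforms were present. The ratio of ESRP1 to ESRP2, which does not depend on library scaling, was 1.36 (1.25 to 1.49) in the vector control and 1.17 (1.04 to 1.32) in the ANGPTL4 library. Their quotient was 0.862 (0.742 to 1.001).

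SNAI2 (SLUG; chromosome 8, 49830249 to 49834299, hg19), a repressor of CDH1 that basal epithelial cells also express, was the most abundant of the 5 transcription factors. It was at 11.8 RPKM (10.1 to 13.7, 177 reads) in the vector control and 14.5 RPKM (11.9 to 17.5, 107 reads) in the ANGPTL4 library. The ratio of 1.23 (0.957 to 1.57) had an interval that included 1. Under upper-quartile scaling, which raises every ratio alike, the intervals of SNAI2 (1.07 to 1.76) and ESRP1 (1.04 to 1.28) excluded 1 as well.

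SNAI1 (SNAIL; chromosome 20, 48599536 to 48605423, hg19), which represses CDH1 and is a short-lived protein, came next. It was at 6.68 RPKM (5.24 to 8.38, 74 reads) in the vector control and 7.89 RPKM (5.71 to 10.6, 43 reads) in the ANGPTL4 library. The ratio was 1.18 (0.792 to 1.74), with intervals that overlapped between the libraries. SNAI2 exceeded SNAI1 1.77-fold (1.34 to 2.35) in the vector control and 1.84-fold (1.28 to 2.68) in the ANGPTL4 library, and the quotient of these was 1.04 (0.652 to 1.67). Neither the SNAI1 nor the SNAI2 region overlapped another row. The pseudogene row SNAI1P1 was at 0 in both libraries. Over the other 6 members lay 13 rows, and all but NFATC3, ZEB1-AS1 and VIM-AS1 were at 0.

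**Figure D2:**
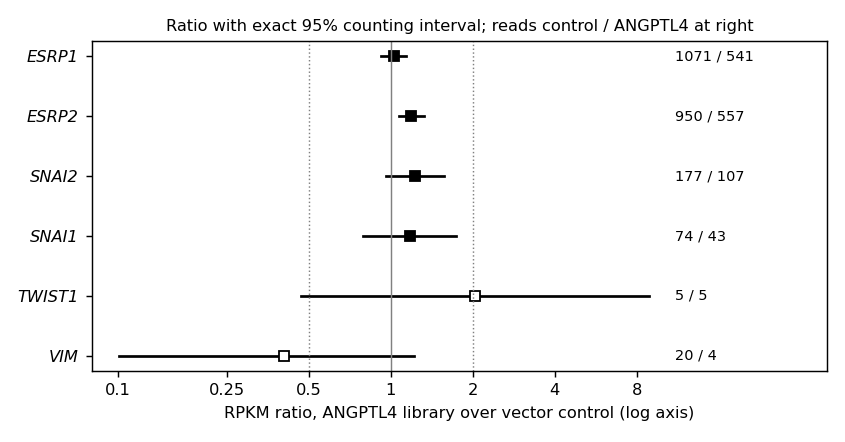
Ratio of RPKM in the ANGPTL4 library over the vector control for the members with reads in both libraries, on a logarithmic axis, with exact 95% counting intervals as bars. The interval of ESRP2 (1.07 to 1.32) lies above 1, and those of ESRP1, SNAI1, SNAI2, TWIST1 and VIM include 1.

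TWIST1 (chromosome 7, 19060614 to 19157295, hg19) rested on 5 reads in each library. These were worth 0.374 RPKM (0.121 to 0.873) in the vector control and 0.761 RPKM (0.247 to 1.77) in the ANGPTL4 library, since the latter was sequenced to less depth. The ratio of 2.03 had an interval from 0.468 to 8.83, so neither equal levels nor a several-fold difference could be told from these reads.

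ZEB1 (chromosome 10, 31607424 to 31818742, hg19) and ZEB2 (chromosome 2, 145141648 to 145282147, hg19) were at or close to 0. ZEB1 had 2 reads (0.0355 RPKM) in the vector control and none in the ANGPTL4 library, where 3 reads would be 0.108 RPKM. ZEB2 had 1 read (0.0085 RPKM) in the vector control and none in the ANGPTL4 library, where 3 reads would be about 0.0518 RPKM. Both lay at or under the limit of 3 reads in both libraries, so no fold is given. The antisense row ZEB1-AS1, which shares 1953 bases with the ZEB1 region, had 8 and 2 reads (0.268 and 0.136 RPKM), and ZEB2-AS1 and ZEB2P1 were at 0.

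VIM (chromosome 10, 17270258 to 17279592, hg19) was at 0.613 RPKM (0.374 to 0.947, 20 reads) in the vector control and 0.249 RPKM (0.0679 to 0.638, 4 reads) in the ANGPTL4 library. It was the only member with reads in both libraries whose value was lower in the ANGPTL4 library. The ratio of 0.407 had an interval from 0.101 to 1.21, and the level intervals overlapped. Of the measured genes, 1.77% lay below VIM in the vector control. The minimum of 1 RPKM largely sets this low share, since VIM itself was under it. In bulk RNA, few cells with much vimentin message and many with little cannot be told apart. The antisense row VIM-AS1 had 1 read in each library, and VIMP1 was at 0.

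In the vector control the members ran from ESRP1 through ESRP2, SNAI2, SNAI1, VIM, TWIST1 and ZEB1 to ZEB2. VIM and TWIST1 could not be ordered beyond counting error (ratio 1.64, 0.597 to 5.58), nor could ZEB1 and ZEB2, with 2 reads and 1 read. TWIST1 exceeded ZEB1 10.5-fold with an interval from 1.72 to 111, on 5 and 2 reads. In the ANGPTL4 library TWIST1 stood before VIM, and these also could not be ordered (ratio 3.05, 0.657 to 15.4). The first 4 members had the same order in both libraries, and the interval of each ratio between neighbours among them excluded 1.

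Ratios between an epithelial and a mesenchymal member were wide apart. ESRP1 exceeded VIM 57.7-fold (37.2 to 94.9) in the vector control and 145.9-fold (56.6 to 537.2) in the ANGPTL4 library. The quotient of these ratios was 2.53 (0.840 to 10.2), which includes 1, and 4 reads of VIM set its width. ESRP2 exceeded VIM 42.4-fold and 124.3-fold, with a quotient of 2.93 (0.975 to 11.8). SNAI2, which is itself an EMT factor, exceeded VIM 19.3-fold and 58.2-fold, with a quotient of 3.02 (0.973 to 12.5). Each of the 3 quotients shares the same VIM reads. Against the SNAI factors, ESRP1 to SNAI2 was at 2.999 and 2.51, with a quotient of 0.836 (0.639 to 1.10). ESRP2 to SNAI1 was at 3.89 and 3.93, with a quotient of 1.01 (0.673 to 1.53). The quotients of ESRP1 to SNAI1 and of ESRP2 to SNAI2 were 0.869 (0.580 to 1.32) and 0.970 (0.741 to 1.27). All of these ESRP to SNAI intervals include 1.

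**Figure D3:**
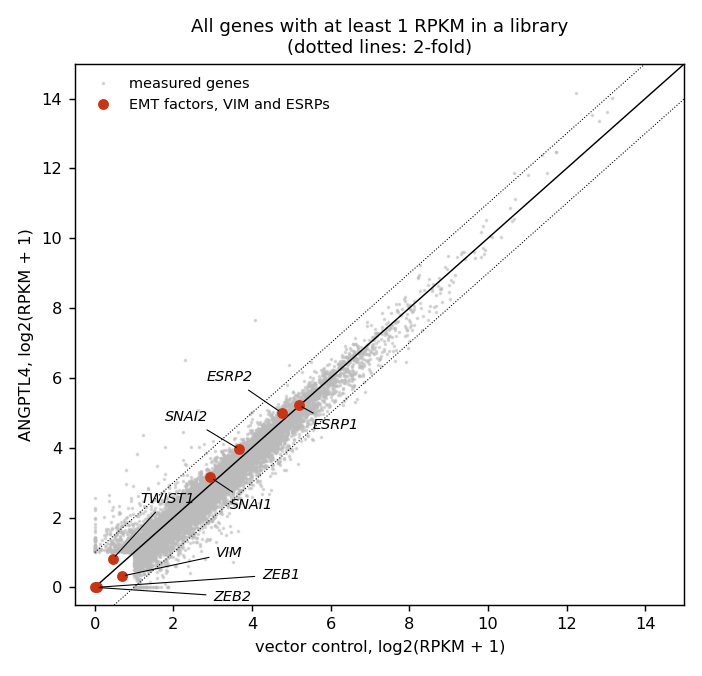
Each point is a gene with at least 1 RPKM in a library, placed by log2(RPKM + 1) in the vector control (horizontal) and the ANGPTL4 library (vertical), with the 8 members in red; the solid line marks equal values and the dotted lines 2-fold. ESRP1, ESRP2, SNAI2 and SNAI1 lie within the cloud near the solid line, and VIM, TWIST1, ZEB1 and ZEB2 lie in the corner near 0.

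The likeness of levels was measured as the Euclidean distance over the 2 values of log2(RPKM + 1), among 200 protein-coding genes of the lists below. Nearest to ESRP1 was EHF, an epithelial ETS factor, at 34.9 and 37.2 RPKM. ESRP2 was nearest to PPL (periplakin), SNAI2 to GRHL2, a grainyhead factor of epithelia, and SNAI1 to CLDN3, a tight junction claudin. Next came GPR56 and HMGA2 for ESRP1, LOXL2 and HNRNPH1 for ESRP2, FOXA2 and GATA3 for SNAI2, and INADL and COL6A1 for SNAI1. Of these, HMGA2 is on the list of other EMT transcription factors and COL6A1 on the mesenchymal list. With 2 libraries this measure holds only the level and the ratio. The lists were chosen around EMT, so the kind of gene found nearest follows largely from that choice.

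Micro-RNAs of the miR-200 family and miR-205 bind the messages of ZEB1 and ZEB2 through their seeds, bases 2 to 8, and keep ZEB protein low in epithelial cells. Their mature forms (RefSeq, GRCh38.p14) are shown to set out which share a seed, with the seed in capitals.
hsa-miR-200b-3p: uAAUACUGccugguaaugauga
hsa-miR-200c-3p: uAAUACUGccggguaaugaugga
hsa-miR-429: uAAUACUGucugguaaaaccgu
hsa-miR-200a-3p: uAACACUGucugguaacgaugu
hsa-miR-141-3p: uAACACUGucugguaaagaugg
hsa-miR-205-5p: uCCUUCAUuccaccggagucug
The first 3 share the seed AAUACUG, the next 2 share AACACUG, and miR-205-5p has CCUUCAU. The rows of the miR-200 hairpins (MIR200A, MIR200B, MIR429, MIR200C, MIR141) and of MIR34A, a regulator of SNAI1, were listed at 0 in both libraries. Rows this short (68 to 110 bases) would need 4.15 to 6.71 RPKM for 3 reads in the vector control and 8.43 to 13.6 RPKM in the ANGPTL4 library. Whether RNA this short entered the libraries is not given in the sources used here. MIR205HG, the host gene of miR-205 (chromosome 1, 209602165 to 209606183, hg19), was at 63.4 RPKM in the vector control and 64.9 RPKM in the ANGPTL4 library, a ratio of 1.02 (0.935 to 1.12). Rows for MIR205, MIR200CHG and MIR34AHG were not analysed here.

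The lists of genes around the members held 201 measured genes in all. None reached 2-fold on the log2(RPKM + 1) scale, against 3.11% of all measured genes and 1.74% of measured protein-coding genes. With a pseudocount of 0.1 in place of 1, SKP1 was 2-fold lower. Counting intervals lay above 1 for 22 list genes (10.9%) and below 1 for 74 (36.8%), beside 8.57% and 27.9% of all genes. These intervals narrow as reads rise, so such shares depend on level as well as on the size of a difference. By size, 0.498% of list genes were at least 1.5-fold higher and 5.47% lower, beside 3.08% and 9.25% of all measured genes. The median log2 ratio of the list genes was -0.09, beside -0.11 over all measured genes. Of all measured genes, 35.6% had the higher and 64.4% the lower value in the ANGPTL4 library. The counts of higher and lower genes in each list below are to be read beside these shares. Of the 10 lists given below with a median, 5 change its sign when the libraries are centred on the median gene and 6 under upper-quartile scaling, and the other medians move by over 1.5 times under one or both of these.

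Other EMT transcription factors had 14 of 20 genes measured, 6 with the higher and 8 with the lower value in the ANGPTL4 library, and a median of -0.07, which turns positive on centring. SOX9, a factor of progenitor cells, was at 32.7 and 40.9 RPKM, a ratio of 1.25 (1.12 to 1.39). ETS1 was at 24.3 and 18.7 RPKM (0.768, 0.686 to 0.859) and TEAD1, a partner of YAP, at 11.8 and 8.86 RPKM. FOXC2, a forkhead EMT factor, was at 2.35 and 3.49 RPKM, on 26 and 19 reads. The low-level SNAI3, the third SNAI gene, had 4 reads and 1 read.

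Factors that hold EMT factors back had 14 of 16 genes measured, 9 higher and 5 lower, with a median of 0.06 (0.17 on centring and 0.21 under upper-quartile scaling). KLF5 was at 47.5 and 57.3 RPKM (1.21, 1.098 to 1.32) and KLF4, a Krüppel-like factor of barrier epithelia, at 19.1 and 23.8 RPKM (1.25, 1.07 to 1.45). OVOL1, a zinc finger repressor of ZEB1, was at 12.8 and 9.32 RPKM (0.730, 0.585 to 0.905). ID1, which sequesters basic helix-loop-helix proteins such as TWIST1 partners, was at 82.9 and 71.2 RPKM. ELF3, an epithelial ETS factor, was at 8.89 and 7.05 RPKM.

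Corepressors and coactivators of SNAI and ZEB proteins had 23 of 25 genes measured, 9 higher and 14 lower, with a median of -0.07, which turns positive on centring. KDM1A, the lysine demethylase bound by SNAI1, was at 49.7 and 39.0 RPKM (0.786, 0.725 to 0.850). EZH2, the methyltransferase of the Polycomb complex, was at 5.59 and 7.39 RPKM (1.32, 1.03 to 1.70). RBBP4, a histone-binding subunit of corepressor complexes, was at 15.2 and 10.7 RPKM. SMARCA4, a chromatin remodeller that ZEB1 recruits, was at 62.8 and 63.0 RPKM.

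Genes that set the stability of SNAIL, SLUG, TWIST1 and ZEB proteins had 23 of 29 measured, 4 higher and 19 lower, with a median of -0.26 (-0.15 on centring and -0.12 under upper-quartile scaling). Intervals lay above 1 for 1 and below 1 for 14 of them, beside 8.57% and 27.9% of all genes. In the other lists with a median, intervals below 1 ran from 3 of 14 other EMT transcription factors to 7 of 13 urothelial and epithelial markers. SKP1, an adaptor of the SCF ubiquitin ligases that mark SNAI1, was at 12.4 and 5.91 RPKM (0.477, 0.413 to 0.549). Its log2 ratio of RPKM + 1 was -0.95, just under 2-fold. CDK4 was at 17.8 and 9.27 RPKM (0.520, 0.411 to 0.654). CUL1, the SCF scaffold, was at 16.0 and 9.50 RPKM and the F-box gene FBXL5 at 7.09 and 4.26 RPKM. PSMD14 was at 8.91 and 4.70 RPKM (0.527, 0.427 to 0.648). The F-box genes FBXO11 (9.12 and 9.03 RPKM) and FBXW7 (1.80 and 1.80 RPKM) were near equal. All of these from CUL1 on were named after their values were seen. The list mixes genes that mark these proteins for removal with genes that stabilise them, so its median has no direction for protein level. LOXL2, which stabilises SNAI1, was at 22.9 and 26.9 RPKM (1.17, 1.05 to 1.31), and it was also among the 3 genes nearest to ESRP2 in level. CSNK2A1, a casein kinase subunit, was at 64.7 and 63.8 RPKM.

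**Figure D4:**
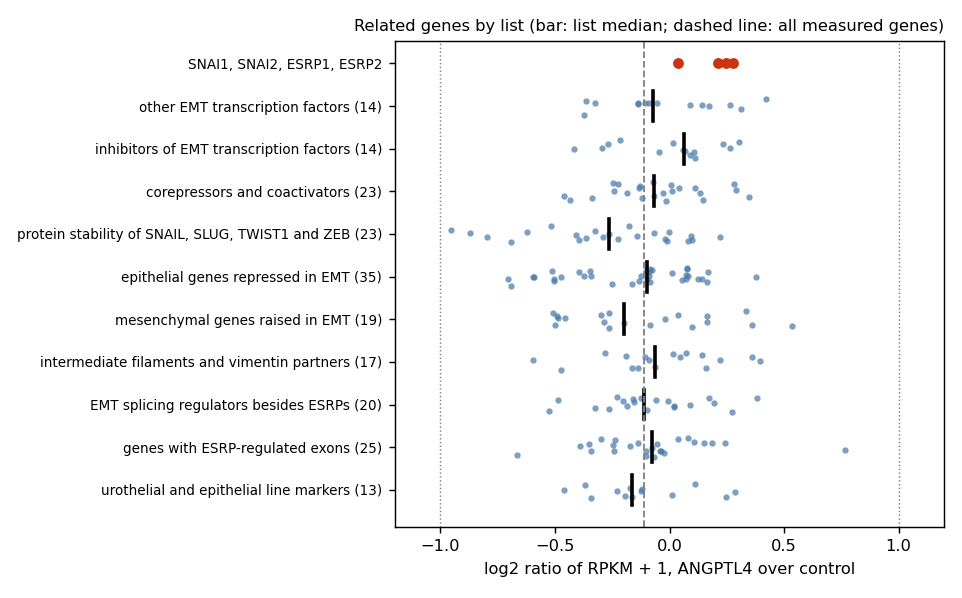
Log2 ratio of RPKM + 1, ANGPTL4 over vector control, for the measured genes of each list (number in parentheses), with the 4 measured members in red at the top; black bars are list medians, the dashed line the median of all measured genes (-0.11) and dotted lines 2-fold. No list gene reaches 2-fold, and the median of the protein stability list is the lowest at -0.26.

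Epithelial genes that EMT factors repress were all measured, 35 of 35, with 12 higher and 23 lower values. The lower share of 65.7% was near the 64.4% of all measured genes. The list median was -0.10, which turns positive on centring. CDH1, E-cadherin, was at 123 and 124 RPKM, a ratio of 1.01 (0.961 to 1.06). KRT19 was at 422.0 and 397.3 RPKM and JUP, plakoglobin, at 387.6 and 407.9 RPKM. PARD6B, a polarity gene, was at 5.86 and 3.21 RPKM (0.547, 0.391 to 0.754) and the junction gene F11R at 47.6 and 29.1 RPKM (0.612, 0.551 to 0.678). MUC1, a mucin, was at 0.760 and 1.29 RPKM on 12 and 10 reads.

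The E-box that SNAI and ZEB proteins bind, CACCTG, was searched on both strands in the 250 bases before the RefSeq start sites (GRCh38.p14). It was present at least once in 6143 of 35116 promoters (17.5%) and at least 4 times in 43 (0.122%). Promoters were at hand for 20 of the 35 epithelial list genes. Of their 29 promoters, 15 (51.7%) held it at least once and 2 at least 4 times, where promoters of 1 gene can overlap. Those 2 are printed to show how the boxes lie, and were picked after the counts were known: CLDN7 (chr17:7262479-7262728, minus strand, 4 boxes) and CRB3 (chr19:6464021-6464270, plus strand, 5 boxes), with the boxes, in either orientation, in capitals.
CLDN7: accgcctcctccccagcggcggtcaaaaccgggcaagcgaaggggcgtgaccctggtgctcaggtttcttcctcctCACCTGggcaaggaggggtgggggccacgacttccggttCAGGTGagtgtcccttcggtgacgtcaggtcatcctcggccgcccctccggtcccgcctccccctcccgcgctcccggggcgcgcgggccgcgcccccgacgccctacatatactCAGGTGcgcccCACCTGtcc
CRB3: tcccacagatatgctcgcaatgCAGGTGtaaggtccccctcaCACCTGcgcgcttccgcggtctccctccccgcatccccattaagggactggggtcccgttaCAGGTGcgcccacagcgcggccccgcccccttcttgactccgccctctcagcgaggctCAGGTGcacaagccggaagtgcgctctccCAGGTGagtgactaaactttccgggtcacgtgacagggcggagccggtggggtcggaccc
CLDN7, a claudin, was at 56.2 RPKM in the vector control and 47.0 RPKM in the ANGPTL4 library (0.836, 0.740 to 0.944), and CRB3, a Crumbs polarity protein, at 5.83 and 4.27 RPKM (0.733, 0.429 to 1.21). A match describes letters in this window and not a bound site. The epithelial genes were listed as targets of E-box binding repressors, so a share above that of all promoters can follow from their choice. Promoters matched for gene type or level were not compared. Among the members, RefSeq promoters were at hand for VIM and ZEB2, with 0 boxes each, and for 7 start sites of ZEB1, of which 2 held a box. SNAI1, SNAI2, TWIST1, ESRP1 and ESRP2 had no entry.

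Mesenchymal genes had 19 of 37 measured, 7 higher and 12 lower, with a median of -0.20. That median was -0.04 when genes below 1 RPKM were kept, -0.09 on centring and -0.05 under upper-quartile scaling. FN1, fibronectin, was at 63.1 and 67.6 RPKM (1.07, 1.03 to 1.11), far above VIM. TPM2, a tropomyosin, was at 48.6 and 70.9 RPKM (1.46, 1.34 to 1.59), while TPM1 was at 9.50 and 6.39 RPKM (0.672, 0.594 to 0.760). TGFBI, a matrix protein, was at 42.0 and 30.4 RPKM. CDH2, N-cadherin, was at 1.57 and 1.87 RPKM, LOX at 1.59 and 2.32 RPKM, and S100A4 at 2.97 and 1.81 RPKM on 20 and 6 reads.

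Intermediate filament genes and vimentin partners had 17 of 23 measured, 8 higher and 9 lower, with a median of -0.06, which turns positive on centring. DSP, desmoplakin, was at 158.5 and 174.8 RPKM and PLEC, plectin, which ties vimentin to other structures, at 109.2 and 104.5 RPKM. LMNB1, a nuclear lamin, was at 33.6 and 44.5 RPKM (1.32, 1.18 to 1.48). YWHAZ, a 14-3-3 protein, was at 125.8 and 82.8 RPKM (0.658, 0.627 to 0.690), and TRIM16 at 11.5 and 8.01 RPKM. NEFH, a neurofilament gene, was at 3.22 and 4.41 RPKM.

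Splicing regulators other than the ESRPs had 20 of 27 measured, 7 higher and 13 lower, with a median of -0.11, which turns positive under upper-quartile scaling. HNRNPF was at 90.5 and 109.4 RPKM (1.21, 1.12 to 1.301) and HNRNPH1, its paralogue, at 21.8 and 28.7 RPKM (1.32, 1.21 to 1.43). SRSF1 was at 28.0 and 19.2 RPKM (0.684, 0.582 to 0.802). HNRNPA1 was at 138.6 and 140.6 RPKM, and CELF2 at 2.16 and 1.25 RPKM. RBFOX2, a mesenchymal splicing factor, was at 17.5 and 16.7 RPKM and RBM47, an epithelial one, at 7.98 and 7.95 RPKM, both named after their values were seen.

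Genes whose exons the ESRPs regulate had 25 of 26 measured, 7 higher and 18 lower, with a median of -0.08, which turns positive on centring. TCF7L2, the Wnt effector, was at 6.69 and 12.1 RPKM (1.80, 1.48 to 2.20), the only list gene at least 1.5-fold higher on the log2(RPKM + 1) scale, beside 3.08% of all measured genes. CD46 was at 17.3 and 10.5 RPKM (0.609, 0.533 to 0.694), one of 11 list genes (5.47%) at least 1.5-fold lower, beside 9.25% of all measured genes. CD44 was at 46.1 and 54.7 RPKM (1.19, 1.12 to 1.26) and ITGA6, an integrin of epithelia, at 103.2 and 114.4 RPKM. CTNND1, p120-catenin, was at 87.3 and 70.8 RPKM and FGFR2 at 2.12 and 1.76 RPKM. Gene RPKM sums over exons and carries no information on which exon was used.

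Keratins and CDH1 were abundant in both libraries, 3 urothelial markers were at or near 0, and the defining markers of other cell types were at or near 0, apart from CD68 and CD14 among leukocyte markers and COL1A1 and PDPN among fibroblast markers. Urothelial and epithelial markers had 13 of 16 genes measured, 4 higher and 9 lower, with a median of -0.16 (-0.05 on centring and -0.00091 under upper-quartile scaling) and a summed level of 1878 and 1713 RPKM. KRT17 was at 554.1 and 428.7 RPKM, KRT5 at 434.2 and 468.9 RPKM and KRT7 at 194.8 and 172.7 RPKM. Among markers of urothelial differentiation, UPK1B was at 42.2 and 38.8 RPKM and UPK2 at 5.09 and 4.19 RPKM, while KRT20 had 0 reads and 1 read, UPK1A 1 read in each library and UPK3A none. Fibroblast markers summed to 8.44 and 8.57 RPKM with 2 of 10 measured, and COL3A1, DCN, LUM, PDGFRA and FAP were at 0. Endothelial markers had 0 of 7 measured (0.601 and 0.927 RPKM), and PECAM1 was not analysed here. Leukocyte markers had 2 of 10 measured, CD68 and CD14, with 6 at 0 and sums of 18.2 and 19.1 RPKM, of which CD68, a lysosomal protein gene, made up 17.1 and 18.0 RPKM.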

How the data were processed

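Total RNA of 1 vector control and 1 ANGPTL4 library of BFTC 905, extracted with TRIzol per the labels, was analysed from RPKM values as the authors deposited them, 1 per gene row per the file headers, on hg19 per the submitters' processing notes. How reads were aligned, the counting program, annotation release, strand use and treatment of multi-mapping reads are not given in the sources used here. Overlapping or similar genes can gain or lose reads by these unknown rules. Rows with the same symbol were summed.

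Depth was the total at which all 13 mitochondrial protein genes gave whole reads (tolerance 0.0001), and exon length was settled as the whole number of bases that gave whole reads in both libraries, nearest to GENCODE release 29, for 15305 of 18483 rows above 0 (82.8%). For ESRP1, SNAI1, TWIST1 and ZEB1 whole multiples of the length used also gave whole reads, so their reads and intervals rest on the choice nearest to GENCODE. The length of ZEB2 is approximate, since its value was deposited with few digits. Ratio intervals are exact binomial intervals at 95% given both depths. The log2 ratio is of RPKM + 1 (a pseudocount of 1), also for the 2-fold and 1.5-fold counts, which understates differences of low genes. Reads, intervals and counts were tested on simulated data that held counting error only and reference lengths close to the true ones. The lengths used for SNAI2 (2282, GENCODE 3392) and ZEB2 (17900, GENCODE 25058) lie further from their reference, which that test did not cover. For SNAI2 only 1 length gave whole reads.

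The text names all members, overlapping, antisense and pseudogene rows, per list genes with the highest mean RPKM (3) and the highest and lowest log2 ratio (2 each), and the nearest genes (3); most of these are printed, and a few are not reported here. The members and the lists were chosen with earlier results of these data known. The alternatives tried were a pseudocount of 0.1 or 5, (for counts and lists) a minimum of 5 RPKM or none, (for single genes) the plain ratio and a correction for exon length, scaling to the upper quartile or to the median gene, and rescaling after small RNA, ribosomal protein and mitochondrial genes were left out. Python 3.11.15, numpy 2.4.6, pandas 2.3.3, scipy 1.17.1 and matplotlib 3.10.9 were used.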

Additional observations from a re-analysis of the deposited data

How the results depend on the processing

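No paired analysis was possible because each group has 1 library. The 4 measured members were taken through 7 alternatives (both pseudocounts, centring, upper-quartile scaling, rescaling, the plain ratio without pseudocount and a correction for exon length). Their log2 ratios ran from 0.14 to 0.36 for SNAI1, 0.21 to 0.43 for SNAI2, 0.03 to 0.20 for ESRP1 and 0.22 to 0.40 for ESRP2. That all stayed above 0 was largely fixed in advance. The pseudocount and the plain ratio cannot change the sign, and centring, upper-quartile scaling and rescaling raise every ratio here. Only the correction for exon length could have changed the sign. Upper-quartile scaling, which moves the median of all genes by 0.14, took ESRP1 to 0.20, and the ratio intervals of ESRP1 (1.04 to 1.28) and SNAI2 (1.07 to 1.76) then excluded 1; centring moves it by 0.11. A pseudocount of 5 gave a log2 ratio of 3.43 for ANGPTL4, beside 4.23 with a pseudocount of 1. Genes at least 2-fold higher numbered 284 with a pseudocount of 0.1, 15 with one of 5 and 34 with a minimum of 5 RPKM. Genes at least 2-fold lower numbered 532, 26 and 126 under these, 139 after centring and 144 after upper-quartile scaling. Fewer genes were tested under the higher minimum, and a larger pseudocount shrinks ratios of low genes by construction. Of 70 list medians (10 lists under 7 alternatives), 21 moved by over 0.1 and 11 took the other sign, 5 on centring and 6 on upper-quartile scaling. Leaving out a library leaves no comparison. Depth limits TWIST1, VIM, ZEB1 and ZEB2, which rest on 0 to 20 reads a library.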
